A study of Homo sapiens with 6 samples.

Results

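Messenger RNA levels of proteasome subunits and assembly factors were measured by RNA sequencing in A2780 cells carrying a hairpin against USP39. The members were taken by gene symbol, as every gene whose symbol is PSM followed by a letter from A to G and a number. This rule was set with earlier results of these data known. The members came to 46 of the 16571 genes in the table, held in 64 of its 21368 transcript rows. A2780 is an established cell line that the labels describe as serous ovarian cancer. The comparison used 3 libraries labelled pGIPZ-NC, the control vector, and 3 labelled shUSP39, a short hairpin RNA against USP39, a component of the spliceosome. Every library came from cells given lentivirus, and the study cloned its hairpins into the same pGIPZ vector. The study used more than 1 hairpin, and the labels do not say which of them these libraries carried or how long after infection RNA was taken. Its methods describe selecting stable infected lines with puromycin, without stating whether the sequenced cells were such lines. The study calls the libraries of a group biologically independent samples, and neither it nor the labels say whether these were separate infections or cultures of the same infected cells. A p-value measures the spread between these libraries.

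The proteasome is the chamber in which most ubiquitin-tagged proteins of a cell are cut into peptides. Its 20S core has outer rings of alpha subunits and inner rings of beta subunits, of which PSMB5, PSMB6 and PSMB7 carry the cutting sites. The 19S cap, built from the PSMC ATPases and the PSMD subunits, recognises, unfolds and feeds in tagged proteins, and dedicated chaperones of the PSMG and PSMD families help both parts to assemble. Interferon brings in PSMB8, PSMB9 and PSMB10 in place of PSMB5, PSMB6 and PSMB7, and the resulting immunoproteasome supplies peptides for presentation on HLA class I molecules.

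Total counts ran from 28294819 to 32939264 per library. The number of genes with at least 1 count was 12662 to 12819 in the pGIPZ-NC libraries and shUSP39 replicate 1, against 15446 in shUSP39 replicate 2 and 14890 in shUSP39 replicate 3, so these last 2 libraries stood apart. Where leaving out either of them ended a call or turned a direction, the value without it is given below. The targeted gene, USP39, was not analysed here, which leaves the group labels without that check. Levels are given as CPM, read counts normalised to library size after scaling by edgeR's TMM factors, and a log2 fold change (log2FC) is shUSP39 over pGIPZ-NC on that scale.

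Promoter windows of 5 genes are shown first, each for the reason given here. The constitutive cutting subunits PSMB5, PSMB6 and PSMB7 are not among them. PSMB9, PSMB10 and PSME2 are interferon-inducible proteasome genes, TAP1 is the peptide transporter gene that faces PSMB9 across a shared promoter region, and PSMB4 is the core subunit with the smallest adjusted p among the members. Each window runs 5′ to 3′ on the strand of its gene, from 250 bases before the RefSeq start to 50 bases after it. Sequences are from RefSeq on build GRCh38.p14, and capitals mark each match to the interferon-stimulated response element, searched on both strands as GAAA, 2 bases of any kind, and GAAA again.
PSMB9, chr6:32853942-32854241, plus strand: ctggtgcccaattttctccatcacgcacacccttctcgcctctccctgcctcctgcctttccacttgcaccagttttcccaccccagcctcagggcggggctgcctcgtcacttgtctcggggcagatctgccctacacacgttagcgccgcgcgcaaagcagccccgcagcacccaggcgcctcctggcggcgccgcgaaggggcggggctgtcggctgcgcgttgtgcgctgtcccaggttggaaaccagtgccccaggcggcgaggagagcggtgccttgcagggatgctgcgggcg
TAP1, chr6:32853655-32853954, minus strand: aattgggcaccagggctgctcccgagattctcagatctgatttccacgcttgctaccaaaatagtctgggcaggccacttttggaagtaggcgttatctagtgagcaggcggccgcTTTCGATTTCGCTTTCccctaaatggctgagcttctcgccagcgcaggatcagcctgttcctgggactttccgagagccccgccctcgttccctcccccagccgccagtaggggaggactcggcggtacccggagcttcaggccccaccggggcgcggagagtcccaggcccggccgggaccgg
PSMB10, chr16:67936801-67937100, minus strand: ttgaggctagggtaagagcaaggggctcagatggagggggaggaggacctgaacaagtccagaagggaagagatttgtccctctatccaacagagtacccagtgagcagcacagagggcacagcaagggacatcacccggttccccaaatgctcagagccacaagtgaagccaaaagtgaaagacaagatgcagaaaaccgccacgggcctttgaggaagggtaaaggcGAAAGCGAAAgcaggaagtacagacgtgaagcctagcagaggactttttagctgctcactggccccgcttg
PSME2, chr14:24146561-24146860, minus strand: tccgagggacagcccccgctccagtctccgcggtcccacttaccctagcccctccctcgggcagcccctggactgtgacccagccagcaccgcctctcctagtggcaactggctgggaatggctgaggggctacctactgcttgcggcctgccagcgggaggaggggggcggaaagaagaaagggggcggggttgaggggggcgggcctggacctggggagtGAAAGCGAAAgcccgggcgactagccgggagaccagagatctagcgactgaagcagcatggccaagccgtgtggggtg
PSMB4, chr1:151399323-151399622, plus strand: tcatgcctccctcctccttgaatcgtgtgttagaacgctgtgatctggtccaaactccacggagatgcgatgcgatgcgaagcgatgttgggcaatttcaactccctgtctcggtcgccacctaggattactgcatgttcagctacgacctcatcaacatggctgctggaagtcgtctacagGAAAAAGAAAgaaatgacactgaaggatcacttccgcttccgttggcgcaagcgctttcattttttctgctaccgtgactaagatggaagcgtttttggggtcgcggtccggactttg

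The windows of PSMB10 and PSME2 each held 1 match, starting 21 and 28 bases before the gene's start. The PSMB9 window held none. PSMB9 and TAP1 are transcribed away from each other from starts 488 bases apart, and the TAP1 window held 2 overlapping matches that lie between both starts and outside the PSMB9 window. In PSMB4, which was lower in shUSP39, the match began 68 bases before the start. Windows were given for 40 members, 49 windows in all. At least 1 match was found in 14.3% of the members' windows, in PSMA4, PSMB4, PSMB8, PSMB10, PSME1, PSME2 and PSMG4, against 3.57% of 35116 windows of the same length genome-wide. The antioxidant response element, TGACNNNGC on either strand, which is the site bound by the proteasome regulator NFE2L1, was in 28.6% of the members' windows and 13.3% of all windows. It was in the windows of 3 of the 8 members with a window that were lower in shUSP39, namely PSMD5, PSME4 and PSMG2. The gamma-activated site, TTCNNNGAA, was in 16.3% against 7.66%, and the CCAAT box, written as CCAAT, in 38.8% against 34.6%. These matches describe the letters in the windows and were not tested.

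To ask how the proteasome responded to the hairpin, all genes were fitted together with edgeR's quasi-likelihood test, and p-values were adjusted over the 10695 genes tested by the Benjamini-Hochberg method. Of the 46 members, 43 were tested. At an adjusted p under 0.05, 9 of them were lower in shUSP39, among which PSMD14 fell by 7.12% and PSMA1 fell by 30.7%. The 9 were the core subunits PSMA1, PSMB1 and PSMB4, the cap subunits PSMD7, PSMD13 and PSMD14, the assembly chaperones PSMD5 and PSMG2, and the activator PSME4. Their count of 9 of 43 stood beside 17.5% of all genes tested that were called lower, which is near the same share. None of the 43 was called higher, where 16.1% of all genes tested were. With edgeR, 2 members were higher at an unadjusted p under 0.05, and the counts called higher were 0 with DESeq2 and 1 with limma-voom.

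No member changed by more than 2-fold at an adjusted p under 0.05, against 6.81% of all genes tested, and none did with DESeq2 or limma-voom. Without shUSP39 replicate 2 the count was 1, PSME1, which is described below. The median log2FC was -0.06 over the members tested and 0.01 over all genes tested, with 26 members below 0 and 17 above. Without overlap between the groups, 16 members were lower in shUSP39, against 22.5% of all genes tested, and 5 were higher, against 21.7%. At 100 CPM or more in pGIPZ-NC, 8 of 18 members and 986 of 2206 genes were lower without overlap, and 2 and 452 were higher. The median log2FC at that level was -0.05 for the members and -0.06 for all genes, so genes of like depth were shifted as well. In bulk RNA, fewer cells expressing a gene and less RNA per cell cannot be told apart. The count of 9 members called became 8 when shUSP39 replicate 2, shUSP39 replicate 3 or pGIPZ-NC replicate 1 was left out. Without shUSP39 replicate 2, PSMD13 and PSMD14 lost their calls and PSME1 was newly called. Without pGIPZ-NC replicate 1, PSMD13 and PSMD14 lost their calls and PSMB10 was newly called, higher. Without shUSP39 replicate 3, only PSMD14 lost its call.

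The scaling between libraries moved small changes such as these. Under upper-quartile scaling 58.0% of all called genes were higher in shUSP39, against 48.0% under TMM, and the median log2FC of all genes was 0.05. Of the members 10 were then called, with PSMB9, PSMB10 and PSMD2 higher and the other 7 lower. PSMD13 and PSMD14 were no longer called under that scaling.

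**Figure D1:**
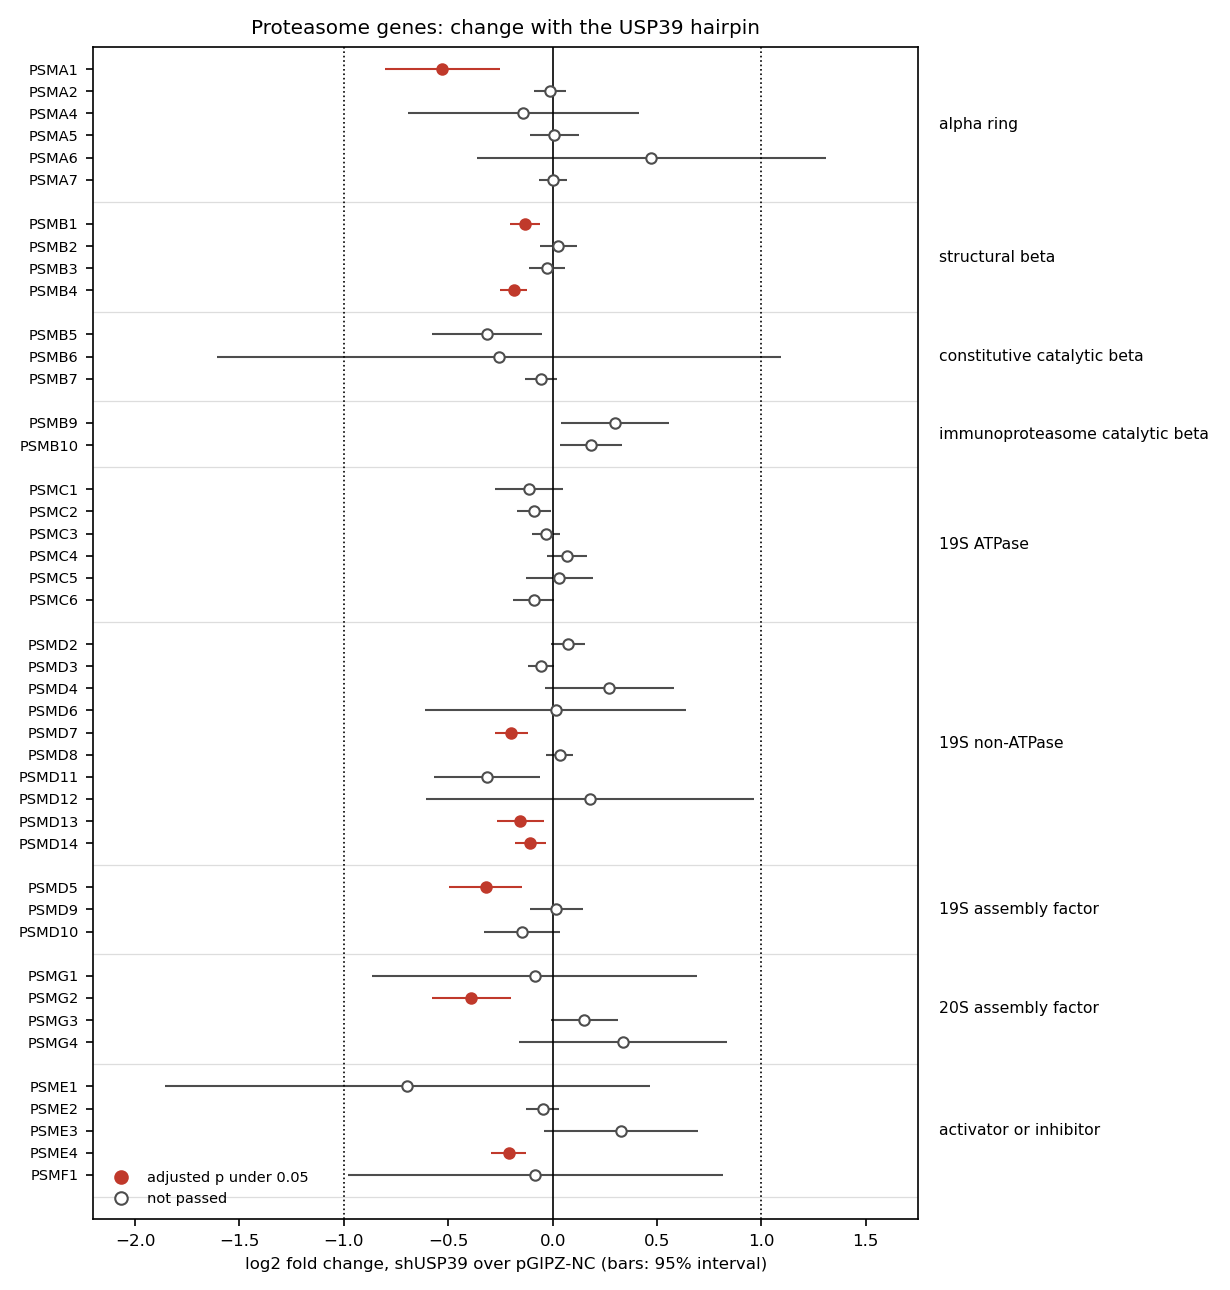
Log2 fold change of each of the 43 tested members (points, shUSP39 over pGIPZ-NC, x axis) with its 95% interval (bars), grouped by role (labels at right); filled red points passed an adjusted p of 0.05 and dotted lines mark 2-fold. All 9 filled points lie left of 0 and between the dotted lines, and the open points of PSMB9 and PSMB10 lie right of 0.

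In the alpha ring, 1 of the 6 tested subunits fell and 5 did not pass. PSMA1, a subunit of this outer ring, was at 14.27, 13.39 and 12.04 CPM in pGIPZ-NC replicates 1, 2 and 3 and at 7.91, 10.9 and 8.72 CPM in shUSP39 replicates 1, 2 and 3. All shUSP39 values lay below all pGIPZ-NC values, with a log2FC of -0.53 (SE 0.13, edgeR adjusted p = 0.00267). This was the largest fall among the 9 members called. The row of the RefSeq messenger RNA NM_002786.3 held 0 counts in 5 libraries and 4 in shUSP39 replicate 2, so the change was measured on the other PSMA1 rows only. It was no longer called when each gene was represented by its highest row (log2FC -0.41, edgeR adjusted p = 0.0522). Of the others, PSMA2 and PSMA7 were read with high precision, with log2FC of -0.01 (95% interval -0.09 to 0.06) and 0.00 (95% interval -0.07 to 0.07). At the other end, PSMA6 had at most 2.06 CPM and an interval from -0.36 to 1.31.

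Among the structural beta subunits, which have no cutting site, PSMB1 and PSMB4 fell and PSMB2 and PSMB3 did not pass. PSMB4, on chromosome 1 at 151372036 to 151374413 of hg19, was at 1168, 1168 and 1097 CPM in pGIPZ-NC and at 1018, 1001 and 997 CPM in shUSP39. The groups did not overlap, and the log2FC was -0.19 (SE 0.03, edgeR adjusted p = 2.86e-05). PSMB1, on chromosome 6 at 170844208 to 170862395, was at 450, 457 and 435 CPM in pGIPZ-NC and at 407, 409 and 409 CPM in shUSP39. Its shUSP39 libraries were close together and all lower, with a log2FC of -0.13 (SE 0.03, edgeR adjusted p = 0.00352). PSMB2 and PSMB3 overlapped between the groups, with log2FC of 0.03 and -0.03.

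**Figure D2:**
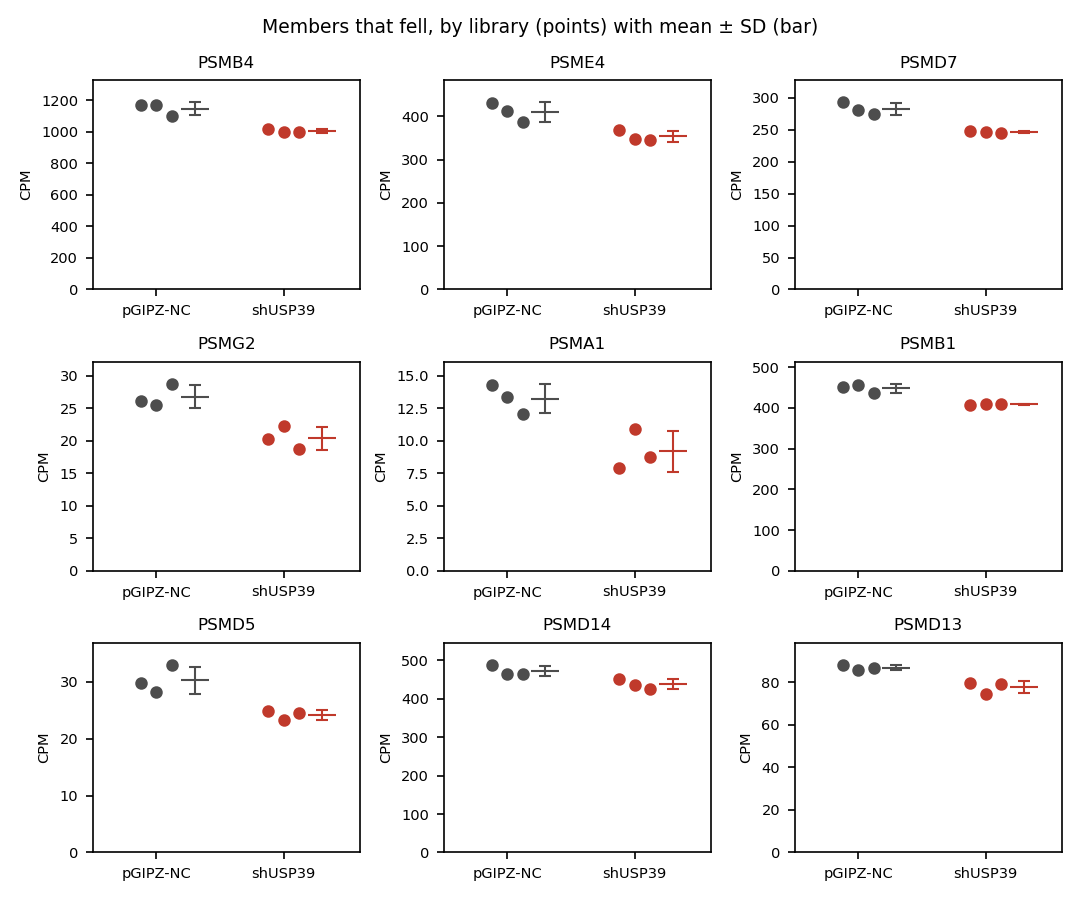
Level in CPM (y axis, from 0) of the 9 members called lower, in each pGIPZ-NC library (grey points) and each shUSP39 library (red points), with the mean ± SD of 3 libraries beside them. In every panel the 3 red points lie below the 3 grey points. The means of PSMA1 go from 13.2 to 9.18 CPM and those of PSMG2 from 26.8 to 20.4 CPM.

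In the 19S cap, the 6 ATPases (PSMC1 to PSMC6) form the ring of motors that unfolds substrates. With all libraries and group as the only term, none of the ATPases was called in edgeR, DESeq2 or limma-voom. Their log2FC ran from -0.11 to 0.07, and at an unadjusted p under 0.05 only PSMC2 differed (log2FC -0.09). Some of these outcomes turned on the model or on single libraries. PSMC2 was called lower with replicate number added to the edgeR fit (adjusted p = 0.0255) and without shUSP39 replicate 1 (edgeR adjusted p = 0.00805). PSMC6 passed without pGIPZ-NC replicate 3 (edgeR adjusted p = 0.0437). Of the 10 tested non-ATPase subunits, 3 fell and 7 did not pass, beside 17.5% of all genes called lower, and the difference between the parts of the cap was not tested. PSMD11, a lid subunit, passed without pGIPZ-NC replicate 2 (edgeR adjusted p = 0.0363) and with replicate number added to the edgeR fit (adjusted p = 0.0493). PSMD7, the partner of the deubiquitinating subunit PSMD14, was at 293, 282 and 275 CPM in pGIPZ-NC and at 248, 247 and 246 CPM in shUSP39. The groups stood well apart, with a log2FC of -0.20 (SE 0.04, edgeR adjusted p = 0.000172). PSMD14, which removes ubiquitin chains as substrates enter the core, was at 487, 464 and 464 CPM in pGIPZ-NC and at 452, 436 and 426 CPM in shUSP39. It had the smallest change of the members called, a log2FC of -0.11 (SE 0.04, edgeR adjusted p = 0.0213). PSMD14 lost its call without pGIPZ-NC replicate 1 (edgeR adjusted p = 0.0959), without shUSP39 replicate 2 (0.0676) and without shUSP39 replicate 3 (0.115).

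PSMD13, a structural lid subunit on chromosome 11 at 236966 to 252984, was at 87.9, 85.8 and 87.0 CPM in pGIPZ-NC and at 79.9, 74.7 and 79.4 CPM in shUSP39. Its shUSP39 libraries were all lower, with a log2FC of -0.16 (SE 0.05, edgeR adjusted p = 0.0288). PSMD13 lost its call without pGIPZ-NC replicate 1, 2 or 3 (edgeR adjusted p = 0.0689, 0.0501 and 0.0535) and without shUSP39 replicate 2 (0.144). Its 2 transcript rows moved in opposite directions. NM_002817.3 was at 82.0, 81.2 and 83.1 CPM in pGIPZ-NC and at 73.0, 67.7 and 71.7 CPM in shUSP39. NM_175932.2, the minor row, was at 5.90, 4.65 and 3.86 CPM in pGIPZ-NC and at 6.97, 7.02 and 7.67 CPM in shUSP39. The major row fell by 0.21 on the log2 scale (SE 0.06, edgeR adjusted p = 0.00438 over all transcript rows), and the minor row rose by 0.59 (SE 0.17, edgeR adjusted p = 0.0108), with no overlap in either. As a share of PSMD13 counts the minor row went from 5.52% ± 1.14 to 9.26% ± 0.490 (SD, n = 3 each).

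**Figure D3:**
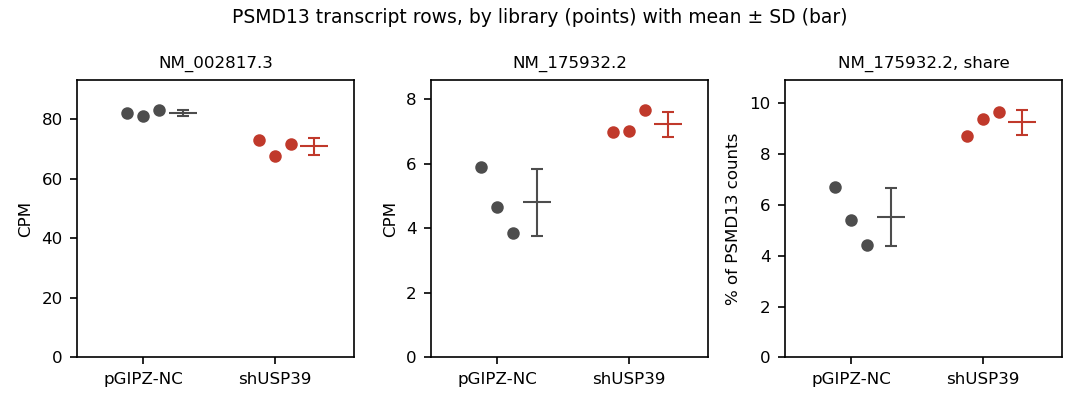
Levels of the 2 PSMD13 transcript rows in CPM (left and middle) and the share of PSMD13 counts in the minor row (right, percent), by library (points) with the mean ± SD of 3 libraries. In shUSP39 the major row lies lower, between 67.7 and 73.0 CPM, and the minor row higher, between 6.97 and 7.67 CPM.

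Transcript usage, the split of a gene's counts between its rows, could be tested for 11 members. PSMD13 was the 1 called (edgeR diffSpliceDGE adjusted p = 0.00436), against 3.69% of the 1628 genes tested for usage. Over the 64 transcript rows of the members, 55 were tested, of which 10 were lower, against 15.1% of all rows tested, and 1 was higher, against 14.2%. The 1 row called lower whose gene was not called was the PSMB5 row NM_001144932.2. Of the 46 members, 22 had fewer rows in the table than RefSeq messenger RNAs, so usage was seen for part of their transcripts only.

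The assembly factors are proteins that guide subunits into place and are absent from the finished particle. PSMD5, a chaperone of the ATPase ring, was at 29.7, 28.2 and 32.9 CPM in pGIPZ-NC and at 24.9, 23.2 and 24.5 CPM in shUSP39. All shUSP39 libraries lay lower, with a log2FC of -0.32 (SE 0.09, edgeR adjusted p = 0.00414), while the other cap chaperones PSMD9 and PSMD10 had log2FC of 0.02 and -0.15 and did not pass. PSMG2, which helps to start the alpha ring together with PSMG1, was at 26.2, 25.5 and 28.8 CPM in pGIPZ-NC and at 20.2, 22.3 and 18.8 CPM in shUSP39. It fell without overlap by 0.39 on the log2 scale (SE 0.09, edgeR adjusted p = 0.00142), a level 23.7% lower. Its partner PSMG1 had at most 1.80 CPM and a log2FC of -0.09 (95% interval -0.86 to 0.69). At that depth a change of the size seen in PSMG2 was not detectable. PSMG3 and PSMG4 had log2FC of 0.15 and 0.34 and did not pass.

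The 3 constitutive cutting subunits did not pass the test, and their deposited rows differed widely in depth. PSMB5, the chymotrypsin-like subunit and the target of bortezomib, was at 11.5, 10.6 and 11.1 CPM in pGIPZ-NC and at 8.37, 9.05 and 9.26 CPM in shUSP39. Its groups did not overlap, with a log2FC of -0.31 (SE 0.13, edgeR adjusted p = 0.0581). PSMB7, the trypsin-like subunit, was at 450, 424 and 416 CPM in pGIPZ-NC and at 422, 408 and 412 CPM in shUSP39. These ranges overlapped, and the log2FC was -0.06 (95% interval -0.13 to 0.02, edgeR adjusted p = 0.266). PSMB6, the caspase-like subunit, was represented by the single row NM_001270481.1, with 8, 12 and 10 counts in pGIPZ-NC and 11, 5 and 9 in shUSP39. With so few counts its interval ran from -1.61 to 1.09, and no change of this subunit could be measured.

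Of the immunoproteasome subunits, PSMB9 and PSMB10 lay higher in every shUSP39 library than in any pGIPZ-NC library, and neither passed the adjusted p. PSMB9, on chromosome 6 at 32811913 to 32827628, was at 9.06, 9.14 and 10.6 CPM in pGIPZ-NC and at 11.4, 11.5 and 12.5 CPM in shUSP39, with a log2FC of 0.30 (SE 0.13, 95% interval 0.04 to 0.56, edgeR adjusted p = 0.0680). PSMB10, on chromosome 16 at 67968409 to 67970767, was at 48.9, 40.5 and 46.0 CPM in pGIPZ-NC and at 50.9, 52.1 and 50.8 CPM in shUSP39, with a log2FC of 0.18 (SE 0.07, 95% interval 0.04 to 0.33, edgeR adjusted p = 0.0504). Both calls turned on the processing and on single libraries. PSMB10 passed in 8 of 16 alternatives, among them the fit without pGIPZ-NC replicate 1 (edgeR adjusted p = 0.0180), and its adjusted p ranged up to 0.324 over the alternatives. PSMB9 passed in 3 of 16, among them the fit without pGIPZ-NC replicate 3 (edgeR adjusted p = 0.0480), with adjusted p up to 0.192.

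PSMB8, the third immunoproteasome subunit, had 0, 0 and 1 counts in pGIPZ-NC and 0, 9 and 0 in shUSP39, and was not tested. All 9 of those counts came from shUSP39 replicate 2, one of the libraries with more genes detected. PSMB8 was deposited as 2 rows, and near 0 counts in both cannot tell a silent gene from reads lost because they match both transcripts. The GENCODE span of PSMB9 on chromosome 6 overlaps those of TAP1 and PSMB8, which lie on the opposite strand. Counts were given per RefSeq transcript, and from its RefSeq start PSMB9 runs away from both genes. The sources used here do not say whether counting used strand.

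**Figure D4:**
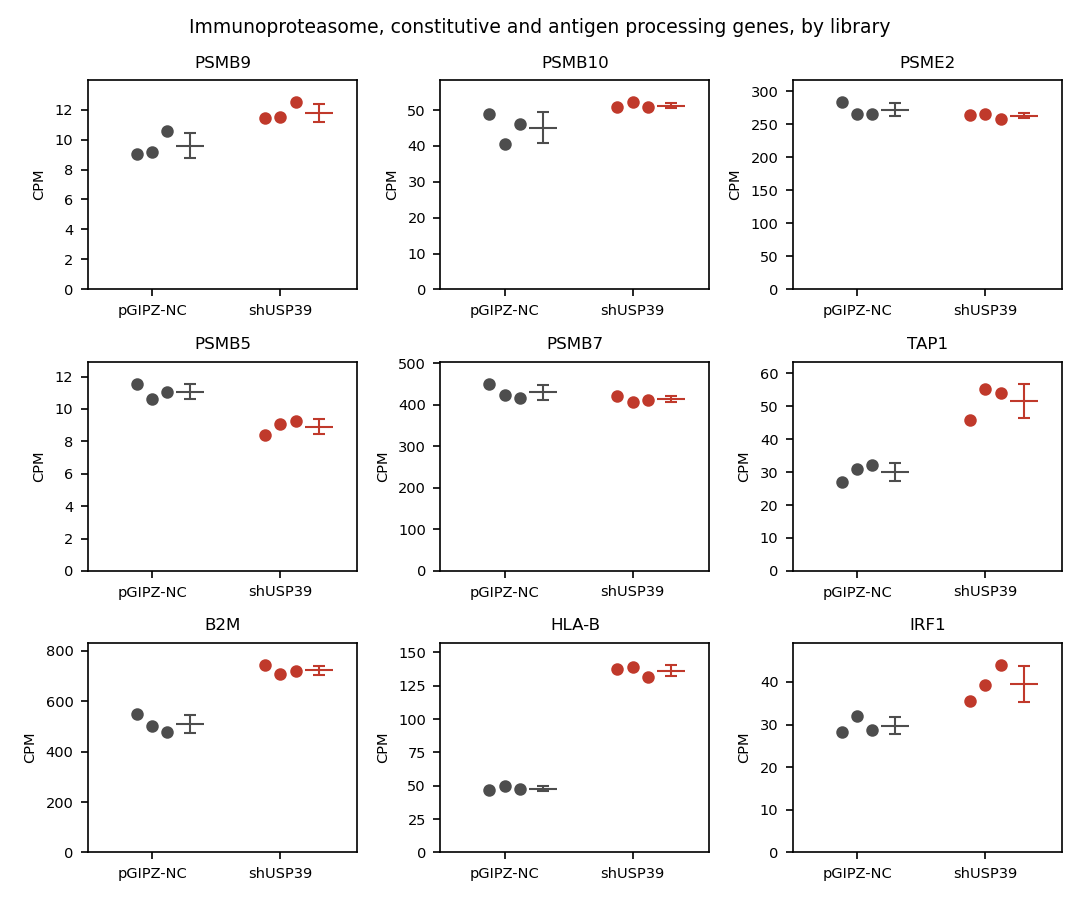
Level in CPM (y axis, from 0) of PSMB9, PSMB10, PSME2, PSMB5, PSMB7, TAP1, B2M, HLA-B and IRF1 in each pGIPZ-NC library (grey points) and shUSP39 library (red points), with the mean ± SD of 3 libraries. HLA-B goes from 47.9 to 136 CPM on average, while PSMB9 and PSMB10 move from 9.59 to 11.8 and from 45.2 to 51.3 CPM.

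To set immunoproteasome subunits beside the constitutive ones they replace, log2 ratios of counts were taken within each library, which removes the scaling between libraries. PSMB10 per 1000 counts of PSMB7 was 109, 95.6 and 111 in pGIPZ-NC and 121, 128 and 123 in shUSP39. The ratio was higher in all 3 shUSP39 libraries, by 0.24 on the log2 scale. Its two-sided exact permutation p was 0.1, the smallest that 3 libraries against 3 can give. PSMB9 over PSMB6 differed by 0.59 with overlap (exact permutation p = 0.2), and PSMB8 over PSMB5 by 1.21 with overlap (exact permutation p = 0.5). Both rest on a partner or a numerator with few counts. Without shUSP39 replicate 2 the PSMB9 over PSMB6 difference was 0.31 and the PSMB8 over PSMB5 difference was -0.20. Leaving out shUSP39 replicate 1 or 3 gave 1.90 and 1.92 for the latter, and leaving out pGIPZ-NC replicate 3 gave 1.80. PSMB9 was therefore also set against the well-measured PSMB7, a pair chosen after seeing the data. PSMB9 per 1000 counts of PSMB7 was 20.2, 21.6 and 25.4 in pGIPZ-NC and 27.1, 28.2 and 30.3 in shUSP39, a difference of 0.36 with no overlap (exact permutation p = 0.1).

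The activators dock on the core in place of the cap. PSME4, the PA200 activator, on chromosome 2 at 54091206 to 54198130, was at 430, 413 and 386 CPM in pGIPZ-NC and at 369, 349 and 345 CPM in shUSP39. It fell without overlap, with a log2FC of -0.21 (SE 0.04, edgeR adjusted p = 0.000145). PSME1 and PSME2 encode the interferon-inducible PA28 alpha and beta subunits. PSME2 was at 283, 266 and 267 CPM in pGIPZ-NC and at 265, 266 and 259 CPM in shUSP39, with a log2FC of -0.05 (95% interval -0.13 to 0.03, edgeR adjusted p = 0.371). Its shUSP39 libraries all lay just below those of pGIPZ-NC, where those of PSMB9 and PSMB10 lay above, and this difference between the genes was not tested.

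PSME1 was represented by 1 of its RefSeq messenger RNAs, with 29, 27 and 32 counts in pGIPZ-NC and 4, 40 and 10 in shUSP39. The shUSP39 libraries fell on both sides of the control, with a log2FC of -0.70 (SE 0.56, edgeR adjusted p = 0.379). Without shUSP39 replicate 2, the library at 40 counts, the log2FC was -2.04 and passed (edgeR adjusted p = 0.0189), so that library decided the value. PSME3, the nuclear PA28 gamma activator, was at 3.89, 4.59 and 5.45 CPM in pGIPZ-NC and at 5.28, 5.88 and 6.32 CPM in shUSP39. Its ranges overlapped slightly, with a log2FC of 0.33 (SE 0.18, edgeR adjusted p = 0.169). The log2 ratio of PSME1 and PSME2 together over PSME3 differed by -0.39 in shUSP39 with overlap (exact permutation p = 0.2), and by -0.24 without pGIPZ-NC replicate 1. PSMF1, the inhibitor PI31, had a log2FC of -0.08 and at most 1.29 CPM.

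All members together took 0.844%, 0.837% and 0.829% of all counts in pGIPZ-NC and 0.821%, 0.810% and 0.805% in shUSP39. Every shUSP39 library lay below every pGIPZ-NC library. By class, the structural beta subunits took 0.192% ± 0.00426 of pGIPZ-NC counts and 0.177% ± 0.000644 of shUSP39 counts (mean ± SD, n = 3), and the 19S ATPases 0.127% ± 0.000720 and 0.126% ± 0.000928. The immunoproteasome subunits took 0.00543% ± 0.000458 and 0.00637% ± 0.0000981. These sums carry no test.

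Levels of different members were compared only per transcript length, as CPM per kilobase, for the 15 tested members with a single RefSeq messenger RNA. Reads of these are not split between several messenger RNAs of current RefSeq. The annotation release behind the counts is not given, so some loss of reads to other transcripts remains possible. In pGIPZ-NC, PSMB4 was highest at 1247 ± 44.5 CPM per kilobase and PSMB9 lowest at 9.43 ± 0.825 (SD, n = 3 each), a 132-fold range. The 6 core subunits of the standard particle in this set, which are needed in equal numbers per particle, spanned 5.04-fold, from PSMB4 through PSMA7 at 726 ± 5.79 to PSMB3 at 247 ± 8.72. PSMB1 and PSMD8 were the only neighbours in the order whose pGIPZ-NC libraries overlapped. PSMB10 stood at 46.2 ± 4.33 and its constitutive counterpart PSMB7 at 437 ± 18.5 in pGIPZ-NC. In shUSP39, PSMB10 was at 52.5 ± 0.766 and PSMB7 at 421 ± 7.34.

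**Figure D5:**
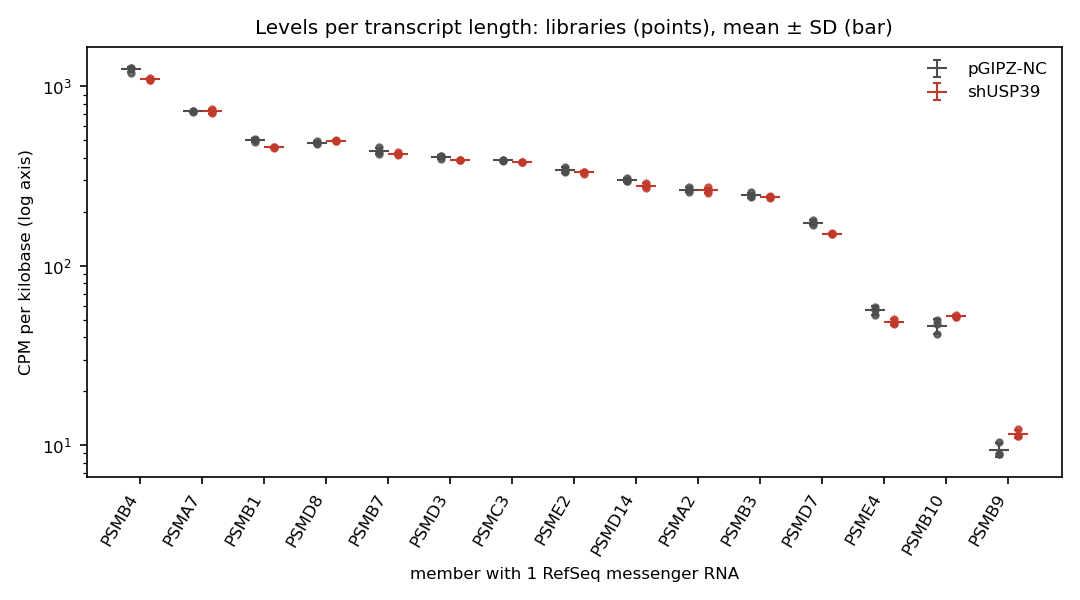
CPM per kilobase of transcript (log axis) for the 15 tested members with 1 RefSeq messenger RNA, ordered by the pGIPZ-NC mean, in pGIPZ-NC (grey) and shUSP39 (red); points are libraries and bars the mean ± SD of 3. PSMB4 stands at the top at 1247 in pGIPZ-NC and PSMB9 at the bottom at 9.43, and PSMB10 and PSME4 change places between the groups, as do PSMB1 and PSMD8.

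The calls were also counted by row structure and by level. Among the 16 members with a single RefSeq messenger RNA, 15 were tested and 5 fell (PSMB1, PSMB4, PSMD7, PSMD14 and PSME4). Among the 30 with several, 28 were tested and 4 fell. Beside these stood 17.5% of all genes tested that were called lower, and the difference between these sets was not tested. The fit restricted to genes with a single RefSeq messenger RNA called 1972 of 3977 genes, 49.3% of them higher. It called 6 of the 15 members, 1 of them higher. Of the 18 members with at least 100 CPM in pGIPZ-NC, 5 fell, where 40.1% of all genes at that level were called lower. Against genes of like depth the members were thus called lower in a smaller share, and this difference was not tested. PSMA8 and PSMB11, subunits of testis and thymus proteasomes, had at most 1 and 4 counts in any library and were not tested. PSMA3 and PSMD1 were not analysed here.

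Genes that make, regulate or feed the proteasome were taken as a list of 23, of which 20 were in the table and 19 tested. Of these 3 fell and 2 rose, beside the 17.5% and 16.1% of all genes given above, and 14 did not pass. POMP, the chaperone that closes the core particle and also favours immunoproteasome assembly, was at 261, 242 and 225 CPM in pGIPZ-NC and at 211, 192 and 194 CPM in shUSP39. It fell without overlap, with a log2FC of -0.29 (SE 0.05, edgeR adjusted p = 3.94e-05). The other genes called are named because they were few, after their values were seen. USP14, a deubiquitinase of the cap, fell by 0.22 on the log2 scale (edgeR adjusted p = 0.00843) and lost its call without shUSP39 replicate 3 (edgeR adjusted p = 0.0562), and KIAA0368, the proteasome adaptor ECPAS, fell by 0.20 (edgeR adjusted p = 0.000141). ZFAND2A, a stress-induced cap partner, rose by 0.55 (edgeR adjusted p = 3.70e-07), and RAD23B, a shuttle for ubiquitinated proteins, by 0.18 (edgeR adjusted p = 0.00228). NFE2L1, the transcription factor that raises proteasome genes, was not analysed here.

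Interferon-linked antigen processing genes form the setting in which the immunoproteasome works. Like the list before it, this list was chosen with earlier results of these data known. Of 13 listed, 12 were tested. Among them 6 rose, beside 16.1% of all genes tested, and 6 did not pass. None fell, beside 17.5%, with edgeR, DESeq2 or limma-voom or at an unadjusted p under 0.05 in edgeR. The median log2FC of the 12 was 0.34. HLA-B, a class I heavy chain, was at 46.5, 49.7 and 47.5 CPM in pGIPZ-NC and at 138, 139 and 132 CPM in shUSP39, with a log2FC of 1.51 (SE 0.05, edgeR adjusted p = 8.43e-18). It was the 1 gene of the list to change by more than 2-fold, and HLA genes share sequence, so reads may be misplaced between them. TAP1, the neighbour of PSMB9, was at 26.9, 31.1 and 32.1 CPM in pGIPZ-NC and at 45.8, 55.2 and 54.0 CPM in shUSP39, with a log2FC of 0.78 (SE 0.08, edgeR adjusted p = 2.39e-08). B2M, the class I light chain, named after its values were seen, rose by 0.50 (SE 0.04, edgeR adjusted p = 1.31e-10).

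Among the regulators, IRF1, an activator of immunoproteasome genes, rose by 0.41 (SE 0.08, edgeR adjusted p = 0.000325), from 28.3, 32.0 and 28.8 CPM in pGIPZ-NC to 35.5, 39.2 and 43.9 CPM in shUSP39. NLRC5, the class I transactivator, was at 2.89 to 4.89 CPM in pGIPZ-NC and 3.31 to 5.06 CPM in shUSP39, with a log2FC of 0.04 (SE 0.22, edgeR adjusted p = 0.904). Its sign turned without pGIPZ-NC replicate 1 (-0.14) and without shUSP39 replicate 1 (-0.15). PSMB9 and TAP1, which share a promoter region, were also set against each other. PSMB9 per 1000 counts of TAP1 was 337, 295 and 329 in pGIPZ-NC and 249, 209 and 231 in shUSP39, a log2 difference of -0.48 with no overlap (exact permutation p = 0.1, a pair chosen after seeing the data).

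The label of the cells was checked against markers. Of 9 ovarian epithelial markers, 8 were in the table. PAX8, EPCAM, CDH1 and MSLN had at most 6 counts in any library and were not tested, and MUC16 had 1 to 6 counts in 4 libraries, 150 in shUSP39 replicate 2 and 71 in shUSP39 replicate 3. KRT18 was at 22.3, 20.8 and 23.9 CPM in pGIPZ-NC and rose without overlap to 31.8, 30.5 and 36.3 CPM in shUSP39 (log2FC 0.56, edgeR adjusted p = 1.51e-05), while KRT7 and KRT8 did not exceed 1.14 CPM. The epithelial markers other than KRT18 were thus at or near 0 in most libraries. Of 8 markers of immune, endothelial and stromal cells, 7 were in the table, and PTPRC, CD3E and PECAM1 had at most 7 counts. LUM and DCN, stromal genes, fell from 4.73 ± 1.13 to 0.380 ± 0.245 CPM and from 1.13 ± 0.546 to 0.0785 ± 0.109 CPM (mean ± SD, n = 3; edgeR adjusted p = 7.34e-09 and 0.000191). KRT8 fell from 0.979 ± 0.140 to 0.0312 ± 0.0541 CPM (mean ± SD, n = 3; edgeR adjusted p = 4.13e-05). Not all markers of other cell types were near 0. CD68 held 295 to 382 counts per library and COL1A1 held 187 to 245, and neither passed the test (log2FC 0.05 and -0.20). The part of any of these in the proteasome results was not tested.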

How the data were processed

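RNA-seq libraries of A2780 cells (3 pGIPZ-NC, 3 shUSP39) were grouped by their labels. The authors deposited 1 table of raw counts, with a row for each RefSeq transcript. The submitters' processing notes name HISAT2, Cufflinks and the build hg19. The counter, annotation release and use of strand are not given in the sources used here, nor whether reads shared by transcripts were dropped, which would lower genes with several transcripts. The table's group means and columns of the authors' own comparison were not used.

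Counts were summed per gene symbol after 46 of 47 date-form symbols were restored. Genes were filtered with filterByExpr, scaled by TMM and tested by the robust quasi-likelihood test of edgeR 4.0.16 (R 4.3.3), with group as the only term and Benjamini-Hochberg adjustment over all genes. Standard errors are the log2FC divided by the square root of F, and 95% intervals use edgeR's moderated degrees of freedom. Transcript usage was tested with diffSpliceDGE. Ratios used a pseudocount of 0.5. Alternatives used DESeq2 1.42.0 and limma 3.58.1. The fit was tested on simulated data. Counting error and the spread of 3 libraries limit the precision.

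Members and gene lists were chosen with earlier results of these data known. Values in every library are given for PSMB5 to PSMB10, PSME1 to PSME3 and members passing the adjusted p. List genes are named if they passed that p and 2-fold, or as known regulators, of which 1 is not reported here. Gene positions and lengths are from GENCODE 44 mapped to GRCh37, the assembly behind hg19, and promoters from RefSeq. Replicates of one group differed by more than sampling noise, so none was counted as a copy.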

Additional observations from a re-analysis of the deposited data

How the results depend on the processing

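Over the alternatives with all 6 libraries, all genes and group as the only term, 9 or 10 members were called, against 9 in the report. These used DESeq2's Wald test or limma-voom, or scaling by DESeq2 size factors, upper quartile or library size. Others changed the filter on low counts or took the highest transcript of each gene. The replicate block, a fit with replicate number added, called more members and is given below. PSMB1, PSMB4, PSMD5, PSMD7, PSME4 and PSMG2 kept their direction and call in every alternative that tested them. The number of immunoproteasome genes called, 0 in the report, was 2 under upper-quartile scaling and with library size only, and 1 with at least 10 counts in every library, limma-voom, the replicate block and the highest transcript of each gene. NLRC5 turned to -0.21 with the highest transcript. Restricting the fit to genes with 1 RefSeq messenger RNA, an alternative chosen after seeing the data, tested 15 members. It called 6 members, 1 immunoproteasome gene (PSMB10, edgeR adjusted p = 0.0369), 1 pathway gene and 2 antigen processing genes. Fewer genes were tested there, 3977 against 10695, of which 1972 were called, against 3598. Without a filter on low counts the median log2FC of all genes was 0.12.

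Leaving out each replicate in turn gave 8 to 10 members called, 0 to 1 immunoproteasome genes, 4 to 5 pathway genes and 6 antigen processing genes. The PSMB8/PSMB5 ratio ranged from -0.20 to 1.92, turning without shUSP39 replicate 2, and NLRC5 from -0.15 to 0.22. The cause of these shifts was not tested.

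Samples with the same replicate number correlated weakly in their deviations from the group means (r from 0.00477 to 0.0688). Not every sample correlated best with its own number. These values cannot show whether the numbers mark any shared handling. With the replicate block 12 members were called, 11 lower and 1 higher, and 3981 of all genes were called, against 3598 without it.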
